A study of Homo sapiens with 6 samples.

Results

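Transcripts of 8 genes linked to immune checkpoints were followed across 6 RNA-seq libraries of RCC10, an established human line of clear cell renal carcinoma that lacks VHL function. The genes are CD274, PDCD1LG2, JAK2, CD276, CD47, PVR, LGALS9 and VTCN1, 8 of the 19009 genes in the deposited table, taken by symbol. They were chosen on values of these same libraries: PDCD1LG2 was picked as nearly silent in parental cells, and JAK2 as a gene near it on the chromosome. The levels of CD274 and PDCD1LG2 against parental cells are therefore given below as a description, without a test. The tested lines were HIF double-knockout cells, made with lentiviral guide RNAs against HIF-1alpha and HIF-2alpha and puromycin selection, and VHL-restored cells, made with a lentivirus that carries VHL. Both were set against parental RCC10 cells labelled as control, with 2 libraries in each of the 3 groups. All cells grew in DMEM with serum, and no non-targeting guide or empty vector is labelled, so the virus and the selection cannot be told apart from the change in HIF or VHL. The labels do not say if an engineered line was 1 clone or a pool, or if libraries with the same label came from different cultures. The p-values below therefore measure spread among these 6 libraries, and that spread may be technical only.

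Immune checkpoint ligands are surface or secreted proteins that tumor cells present to leukocytes and that damp their attack. PD-L1 (the product of CD274) and PD-L2 (the product of PDCD1LG2) bind the PD-1 receptor of T cells, and interferon gamma is known to raise PD-L1 through the kinases JAK1 and JAK2 and the transcription factor IRF1. In kidney carcinoma, loss of VHL stabilises HIF alpha subunits, and HIF has been reported to act on the CD274 promoter under hypoxia.

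The upstream sequence of CD274 is shown because it carries both interferon-type motifs that were searched, and that of CD47 because it carries 4 hypoxia-type cores. RefSeq sequences (GRCh38.p14) were matched for 7 of the 8 members, PDCD1LG2 excepted, and gave 11 windows of 250 bases before a transcript start. The stretch of CD274 is at chr9:5450292-5450491 on the plus strand, from 250 to 51 bases before its start, and capitals mark the overlapping matches to the interferon response core. The stretch of CD47 is at chr3:108091032-108091281 on the minus strand, from 250 to 1 base before its start and inside an intron of a longer GENCODE 29 transcript, and capitals mark hypoxia response cores. Both are written 5′ to 3′ on the strand of the gene.
CD274: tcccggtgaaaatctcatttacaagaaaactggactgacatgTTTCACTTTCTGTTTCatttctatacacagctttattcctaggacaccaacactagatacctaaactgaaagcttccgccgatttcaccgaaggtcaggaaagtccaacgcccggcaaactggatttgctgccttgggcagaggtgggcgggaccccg
CD47: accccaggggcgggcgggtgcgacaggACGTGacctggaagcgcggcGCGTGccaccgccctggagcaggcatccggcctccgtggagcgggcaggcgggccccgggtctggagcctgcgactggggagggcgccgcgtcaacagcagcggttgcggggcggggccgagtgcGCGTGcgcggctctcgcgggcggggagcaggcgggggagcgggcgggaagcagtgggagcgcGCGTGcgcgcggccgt

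The motifs were searched on both strands as plain letters. The CD274 window held 2 overlapping matches to the interferon response core (GAAA and, after any 2 bases, GAAA again), from -208 to -199 and from -202 to -193, and this core occurred in 3.02% of 35116 RefSeq windows of the same length. It also held 1 match to the STAT-type GAS element TTCNNNGAA, from -125 to -117, an element found in 6.57% of all windows, and no match to the hypoxia cores. The hypoxia cores ACGTG or GCGTG are short and occurred in 43.2% of all windows. They matched 4 times upstream of CD47, once upstream of VTCN1, at 3 of the 4 JAK2 starts with 4, 1 and 2 matches, and once at 1 of the 2 CD276 starts. The same CD276 start held 1 match to the NF-kB motif, present in 9.96% of windows. The windows of PVR and LGALS9 held none of the motifs, and no member window held the AP-1 motif TGANTCA, present in 6.57% of windows. A match is a run of letters and not a shown binding site, and the absence of one says only that these letters are not in this window.

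**Figure D1:**
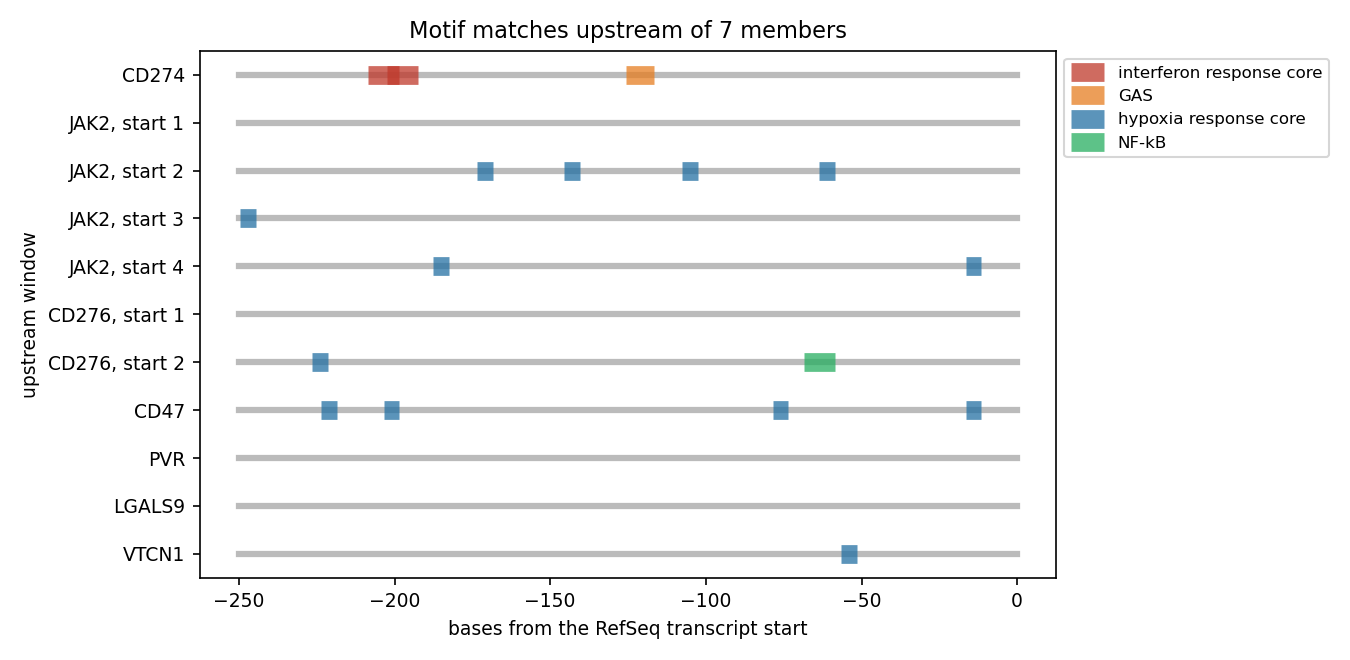
Motif matches in the 250 bases before each RefSeq transcript start of 7 members (x axis, bases from the start; y axis, 1 line per start; colored blocks, matches on either strand). CD274 alone among these windows held the interferon response core and the GAS element, and CD47 and the second JAK2 start held 4 hypoxia cores each.

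Library totals ran from 22248126 to 29929116 counts, so 3 counts corresponded to 0.101 to 0.132 CPM (counts scaled to the library size, which is the library total times a TMM factor of 0.977 to 1.02) in 1 library. In HIF double-knockout cells EPAS1, the gene of HIF-2alpha, averaged 46.2 ± 2.54 CPM against 351 ± 2.21 CPM in parental cells (SD, n = 2 each), and HIF1A averaged 30.6 ± 1.42 CPM against 71.2 ± 2.42 CPM. A guide edit need not remove the transcript, so these levels are no measure of the proteins. In VHL-restored cells VHL averaged 687 ± 50.3 CPM against 39.1 ± 0.461 CPM in parental cells, and HIF1A was also higher, at 295 ± 12.6 CPM. Of 11 markers of renal tubule and renal carcinoma, all were in the table, with summed levels of 7166 to 7169 CPM in HIF double-knockout cells, 6246 to 6601 CPM in VHL-restored cells and 8944 to 9001 CPM in parental cells. PAX8 reached 416 CPM, while CA9, a HIF target typical of this carcinoma, had 1 count in all 6 libraries. Of the markers of other cell types, PTPRC and CD3E of leukocytes, PECAM1, KDR and ERG of endothelium and COL3A1 of fibroblasts had no count in any library. The 11 of 14 leukocyte markers in the table summed to 23.5 to 26.2 CPM in HIF double-knockout cells, 25.1 to 27.8 CPM in VHL-restored cells and 61.4 to 65.9 CPM in parental cells, mostly as CD68. The 9 of 10 fibroblast and pericyte markers in the table, mostly ACTA2, RGS5, PDGFRB and COL1A1, summed to 35.9 to 36.0 CPM in HIF double-knockout cells, 51.4 to 52.3 CPM in VHL-restored cells and 55.6 to 56.1 CPM in parental cells. The 6 of 8 endothelial markers in the table, mostly TEK, summed to 0.239 to 0.311 CPM in HIF double-knockout cells, 1.75 to 1.86 CPM in VHL-restored cells and 0.539 to 0.617 CPM in parental cells. The part of these marker differences in the results below was not tested.

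CD274 and PDCD1LG2 were both far higher in each engineered line than in parental cells, and the engineered lines stood close to each other. CD274 had 34.6 and 38.4 CPM in the HIF double-knockout libraries, 39.3 and 38.1 CPM in the VHL-restored libraries, and 4.55 and 4.76 CPM in the parental libraries. The 4 engineered libraries lay well above both parental ones, with no overlap. With 2 libraries a group, the groups did not overlap for 71.6% of all genes in HIF double-knockout against parental cells, for 72.2% in VHL-restored against parental cells and for 72.6% between the engineered lines, so separate groups alone are common in these data. The fitted log2 fold change was 2.97 ± 0.11 (SE) in HIF double-knockout cells against parental cells, a 7.84-fold higher level, and 3.06 ± 0.11 in VHL-restored cells, 8.33-fold higher. Of the 18273 genes tested, 490 had a higher fold in HIF double-knockout cells and 572 in VHL-restored cells. In these bulk libraries a larger share of cells with CD274 transcript and more transcript per cell cannot be told apart.

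PDCD1LG2, whose protein is the second ligand of PD-1, was counted 185 and 182 times in the HIF double-knockout libraries and 167 and 178 times in the VHL-restored libraries, against 1 count in each parental library. These counts correspond to 6.33 and 7.07 CPM in HIF double-knockout, 5.97 and 6.36 CPM in VHL-restored, and 0.0337 and 0.0441 CPM in parental libraries, the last under the level of 3 counts. The ratio of library-scaled counts was 175 for HIF double-knockout over parental cells, with a 95% counting interval of 48.0 to 1448. It was 161 for VHL-restored over parental cells, with an interval of 44.4 to 1338. The width of both intervals comes from the 2 parental counts, and they cover counting error only. Set per kilobase of merged GENCODE 29 exons, PDCD1LG2 stood at 28.5% and 28.7% of CD274 in the HIF double-knockout libraries and at 23.7% and 26.0% in the VHL-restored libraries. The matching parental shares of 1.15% and 1.44% rest on 1 count each.

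The engineered lines did not differ detectably from each other in either PD-1 ligand. Between HIF double-knockout and VHL-restored cells the log2 fold change of CD274 was -0.09 ± 0.08, with a 95% interval of -0.25 to 0.07 and an adjusted p of 0.363. For PDCD1LG2 it was 0.12 ± 0.12, with an interval of -0.14 to 0.37 and an adjusted p of 0.474. These tests leave room for differences of the size of the intervals, and a missed threshold does not show equal levels. The contrasts of both engineered lines with parental cells share the parental libraries, so their similar folds are not independent of each other.

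JAK2, the kinase that carries the interferon gamma signal from its receptor, stood much closer to its parental level than CD274 and PDCD1LG2 did. It had 4.82 and 4.86 CPM in the HIF double-knockout libraries, 7.23 and 7.18 CPM in the VHL-restored libraries, and 4.08 and 4.41 CPM in the parental libraries. JAK2 was higher in VHL-restored than in parental cells, with a log2 fold change of 0.77 ± 0.13, 1.70-fold, and an adjusted p of 7.1e-06. In HIF double-knockout cells its log2 fold change was 0.19 ± 0.14 with an interval of -0.09 to 0.48, which did not pass the test (adjusted p = 0.262), although both libraries lay above both parental ones. The difference between HIF double-knockout and VHL-restored cells was itself past the threshold, at -0.57 ± 0.13 with an adjusted p of 0.000219.

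CD276, the gene of the B7-H3 protein, was lower in both engineered lines and lowest in VHL-restored cells. It had 76.6 and 70.4 CPM in the HIF double-knockout libraries, 62.3 and 60.4 CPM in the VHL-restored libraries, and 94.0 and 95.3 CPM in the parental libraries. The 3 groups did not overlap. The log2 fold change against parental cells was -0.36 ± 0.07 in HIF double-knockout cells (adjusted p = 2.3e-05) and -0.63 ± 0.07 in VHL-restored cells (adjusted p = 2.1e-09). HIF double-knockout cells stood above VHL-restored cells, with a log2 fold change of 0.26 ± 0.07 (adjusted p = 0.00141). Per kilobase, CD274 reached 54.5% and 65.9% of CD276 in the HIF double-knockout libraries and 76.2% and 76.3% in the VHL-restored libraries, against 5.85% and 6.04% in the parental libraries.

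VTCN1, the gene of the related B7-H4 protein, was hardly transcribed in any group. It had 0 and 1 count in the HIF double-knockout libraries, no count in the VHL-restored libraries, and 8 and 5 counts in the parental libraries. With the VHL-restored group set at 3 counts, its level was 4.63-fold lower than the parental one. This figure leaves out the counting error of the 13 parental counts. VTCN1 was called lower in VHL-restored cells in edgeR (adjusted p = 0.00508), a call lost without parental replicate 1. The HIF double-knockout level was 0.0732 times the parental one, with a 95% counting interval of 0.00172 to 0.488. That contrast passed in edgeR (adjusted p = 0.0205) and was lost with DESeq2 (0.119), without parental replicate 1 (0.110) or 2 (0.0572) and without HIF double-knockout replicate 1 (0.136).

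CD47, the signal on tumor cells that holds off macrophages through SIRP alpha, showed its largest log2 fold change between the engineered lines, with parental cells in between. It had 105 and 114 CPM in the HIF double-knockout libraries, 141 CPM in each VHL-restored library, and 123 and 132 CPM in the parental libraries. The 3 groups did not overlap, with VHL-restored cells highest and HIF double-knockout cells lowest. The log2 fold change between HIF double-knockout and VHL-restored cells was -0.37 ± 0.06 (adjusted p = 8.5e-06). Against parental cells it was -0.22 ± 0.06 in HIF double-knockout cells (adjusted p = 0.00334), a call lost without parental replicate 2 (0.120) or HIF double-knockout replicate 1 (0.0833) and when every library was centred on its median level (-0.10, adjusted p = 0.202). In VHL-restored cells it was 0.14 ± 0.06 and missed the threshold (adjusted p = 0.0555), which it passed with that centring (0.23, adjusted p = 0.00243).

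PVR, the ligand of the T-cell and natural killer cell receptors TIGIT and CD226, was slightly lower in both engineered lines. It had 85.7 and 80.7 CPM in the HIF double-knockout libraries, 83.5 and 83.2 CPM in the VHL-restored libraries, and 99.0 and 94.6 CPM in the parental libraries. Each engineered library lay under both parental ones, while the VHL-restored values fell within the range of the HIF double-knockout values. The log2 fold change was -0.22 ± 0.07 in each engineered line against parental cells, with adjusted p of 0.00481 in HIF double-knockout and 0.00509 in VHL-restored cells. Without parental replicate 1 neither call held (0.100 and 0.115), the call in HIF double-knockout cells was also lost without HIF double-knockout replicate 2 (0.0564), and both were lost with centring on the median level (-0.09 and -0.13, adjusted p = 0.248 and 0.0940). Between the engineered lines the 95% interval ran from -0.13 to 0.13 (adjusted p = 1).

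LGALS9, the gene of galectin-9, a ligand of the TIM-3 receptor, had 3 counts in each HIF double-knockout library, 5 and 7 in the VHL-restored libraries and 1 in each parental library. The ratio to parental cells was 2.86 in HIF double-knockout cells, with a counting interval of 0.511 to 28.9, and 5.61 in VHL-restored cells, with an interval of 1.25 to 51.7. Neither passed the test (adjusted p = 0.370 and 0.0638). Reads of LGALS9 may be shared with its near-identical copies LGALS9B and LGALS9C, so its counts are uncertain.

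**Figure D2:**
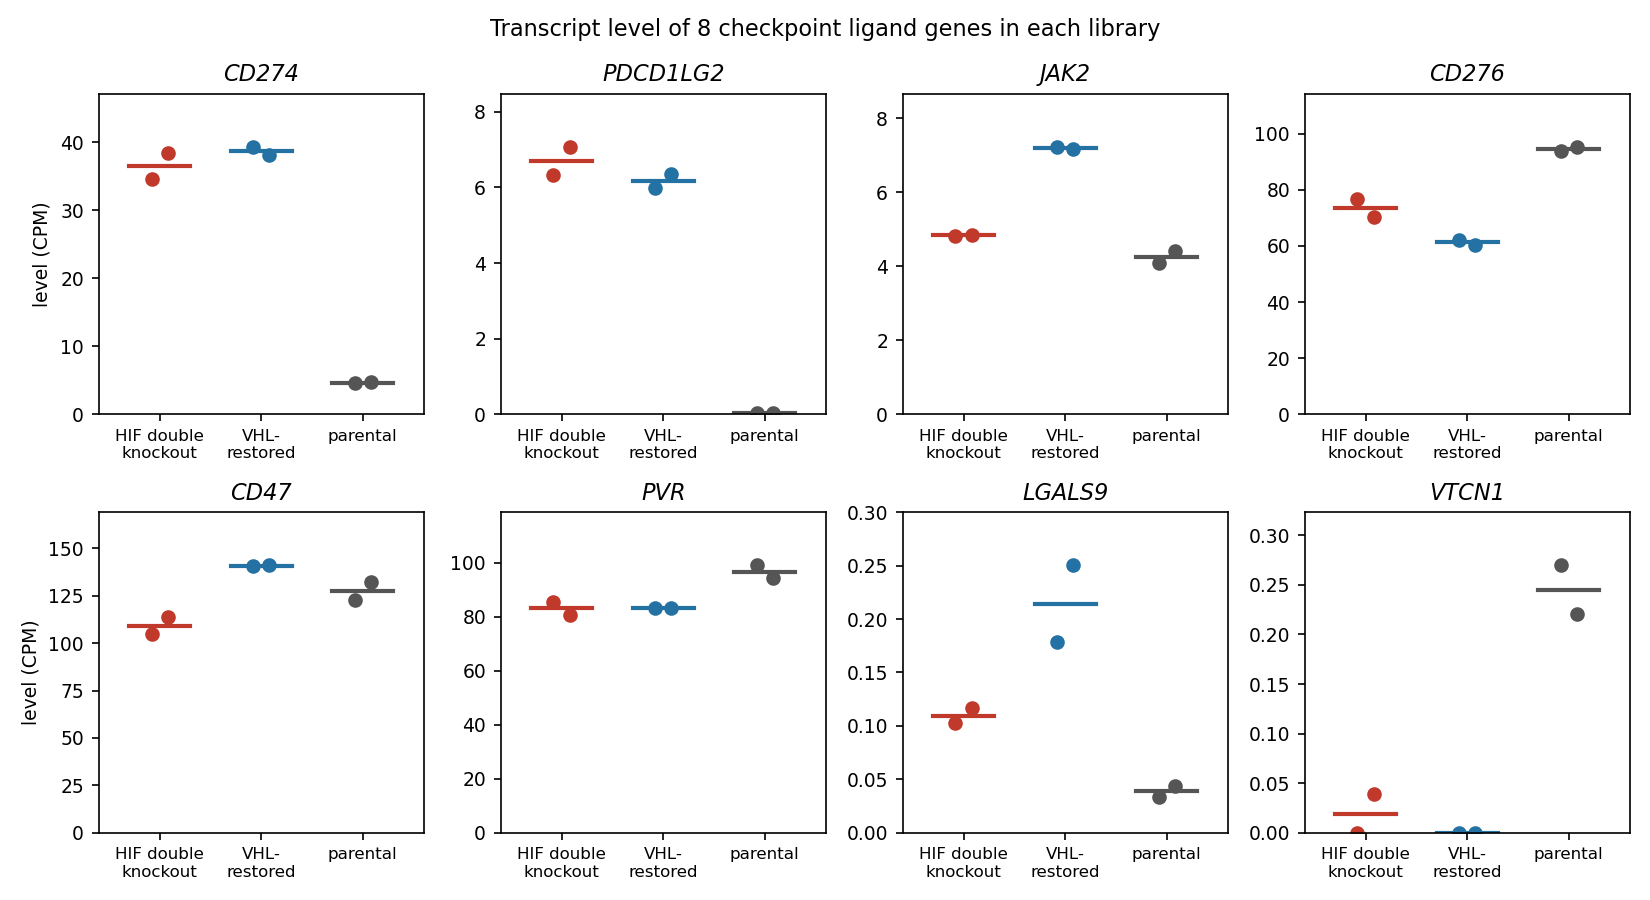
Transcript level of each of the 8 members in every library (y axis, CPM, each panel with its own scale from 0; points, libraries; bars, group means of 2 libraries). CD274 and PDCD1LG2 sit near 36.5 and 6.70 CPM in HIF double-knockout cells and near 38.7 and 6.17 CPM in VHL-restored cells, far above parental cells, while LGALS9 and VTCN1 stay under 0.3 CPM throughout.

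Compared per kilobase of exon, the order of the members in parental cells was PVR (27.5 CPM per kb), CD47 (24.1), CD276 (21.3), CD274 (1.26), JAK2 (0.803), VTCN1 (0.0810), PDCD1LG2 (0.0164) and LGALS9 (0.0125), and the libraries of PVR lay above those of CD47. PDCD1LG2 and LGALS9 had 1 count in each parental library, so their order is not resolved. In HIF double-knockout cells PVR (23.6) and CD47 (20.7) were followed by CD276 (16.5), CD274 (9.90), PDCD1LG2 (2.83) and JAK2 (0.915). In VHL-restored cells CD47 (26.7) led PVR (23.7), CD276 (13.8), CD274 (10.5), PDCD1LG2 (2.61) and JAK2 (1.36). CD274 thus kept the fourth place in each group, and PDCD1LG2 stood above JAK2 in both engineered lines and below it in parental cells. The summed level of all 8 members was 313 and 315 CPM in the HIF double-knockout libraries, 339 and 336 CPM in the VHL-restored libraries, and 325 and 332 CPM in the parental libraries. CD274 made up 11.1% and 12.2% of that sum in the HIF double-knockout libraries and 11.6% and 11.3% in the VHL-restored libraries, against 1.40% and 1.44% in the parental libraries.

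Both engineered lines changed a large part of the transcriptome, and the members' counts have to be read against that. In HIF double-knockout against parental cells 54.1% of all genes tested passed an adjusted p of 0.05, 26.6% higher and 27.5% lower, and of the 8 members 2 were higher, 4 lower and 2 did not pass. With centring on the median level, chosen after seeing the data, 6010 of 10140 called genes were higher, against 4858 of 9888 in the fit reported here, because that centring adds 0.12 to every log2 fold change of this contrast. In VHL-restored against parental cells 54.2% of genes passed, 26.5% higher and 27.7% lower, and 3 members were higher, 3 lower and 2 did not pass. In both contrasts the higher members include CD274 and PDCD1LG2, which are described above without a test. Nothing is read from these member counts, since values of the same contrasts entered the choice. In HIF double-knockout against VHL-restored cells 56.0% of genes passed, 28.0% higher and 28.0% lower. Of the members 1 was higher, 2 were lower and 5 did not pass, among them LGALS9 and VTCN1, which had few counts. With 8 members this is not read as a difference from all genes. The median log2 fold change of the members was -0.01 in HIF double-knockout and 0.46 in VHL-restored cells against parental cells, beside 0.00 for all genes in both. Nothing is read from these medians, since values of the same contrasts entered the choice of members. Of the 8 members 6 were kept by a filter on low counts, LGALS9 and VTCN1 excepted. PDCD1LG2, with 1 count in each parental library, was kept only through the engineered libraries.

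**Figure D3:**
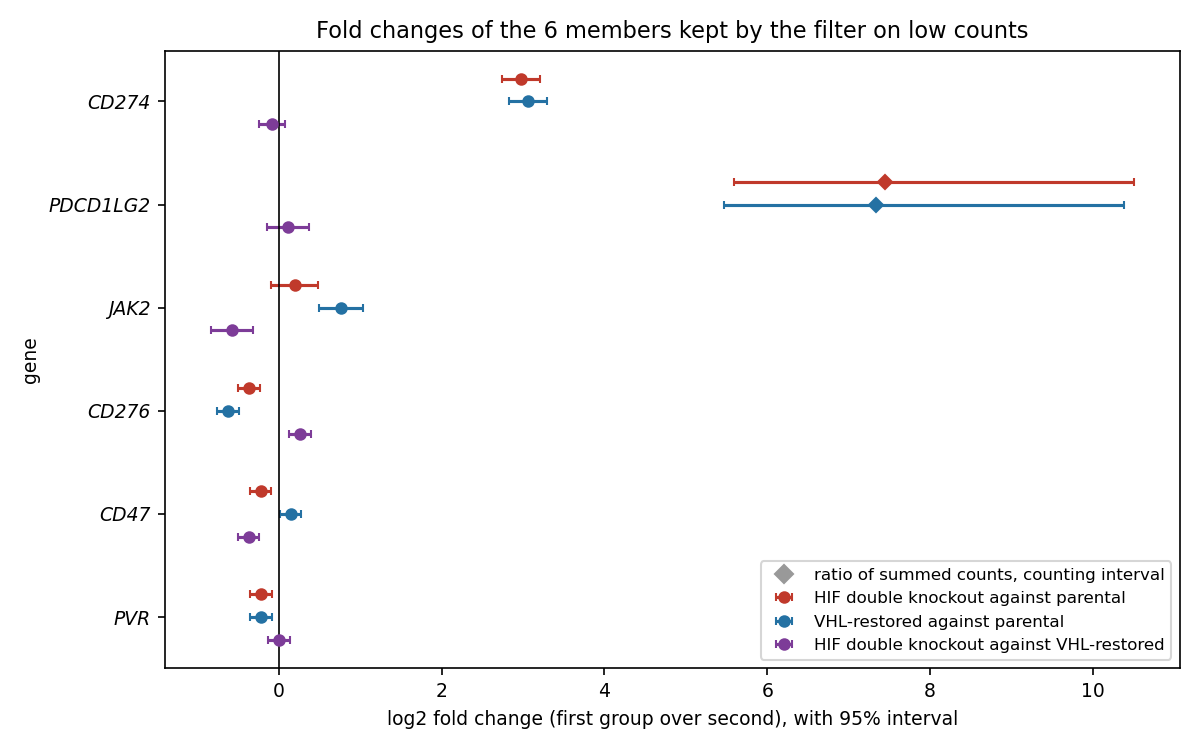
Log2 fold changes of the 6 members kept by the filter on low counts (x axis, first named group over second, with 95% intervals; circles, edgeR fit; diamonds, ratio of summed counts with its counting interval). CD274 lies near 3 against parental cells and at -0.09 between the engineered lines, and the other 4 genes apart from PDCD1LG2 stay between -0.63 and 0.77.

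CD274, PDCD1LG2 and JAK2 lie close together on chromosome 9, and the genes around them did not show folds of the size of those of CD274 and PDCD1LG2. Up to 8 protein-coding genes on each side and those between them gave 21 neighbours in the RefSeq order, of which 17 were in the table and tested. In HIF double-knockout against parental cells 11 of the 17 were lower, 2 higher and 4 did not pass. Their median log2 fold change was -0.56, beside 27.5% of all genes lower and 26.6% higher. In VHL-restored against parental cells 10 were higher, 1 lower and 6 did not pass, with a median of 0.36. Of all genes 26.5% were higher and 27.7% lower there. Between the engineered lines 13 were lower in HIF double-knockout cells and 4 did not pass, with a median of -0.95. Of all genes 28.0% were lower in that contrast, and neither PD-1 ligand passed in it. Among the 17, SPATA6L, RLN1, RLN2 and IL33 were under 1 CPM in each group. SPATA6L was still called lower in HIF double-knockout cells (0.0536 against 0.289 CPM in parental cells).

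PLGRKT, the gene next to CD274, which encodes a plasminogen receptor, averaged 16.5 ± 2.54 CPM in HIF double-knockout cells and 20.4 ± 2.89 CPM in VHL-restored cells, against 11.2 ± 0.797 CPM in parental cells. Its log2 fold change was 0.56 ± 0.12 in HIF double-knockout cells (adjusted p = 9.6e-05), a call lost without parental replicate 1 (adjusted p = 0.0661), and 0.87 ± 0.11 in VHL-restored cells (adjusted p = 6.7e-08). RIC1, next to PDCD1LG2 on the other side and listed under the older symbol KIAA1432, was lower in HIF double-knockout than in parental cells, with a log2 fold change of -0.87 ± 0.08 (adjusted p = 1.6e-10). In VHL-restored cells it was higher, with 0.24 ± 0.08 (adjusted p = 0.0112), a call lost without parental replicate 1 (0.0838) or 2 (0.192) and without VHL-restored replicate 1 (0.358). Farther out, ERMP1 was lower in HIF double-knockout cells, at 20.3 ± 1.08 CPM against 50.1 ± 1.22 CPM in parental cells. SLC1A1, a glutamate transporter gene, showed opposite calls, with a log2 fold change of -1.64 ± 0.10 in HIF double-knockout cells and 0.64 ± 0.08 in VHL-restored cells.

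**Figure D4:**
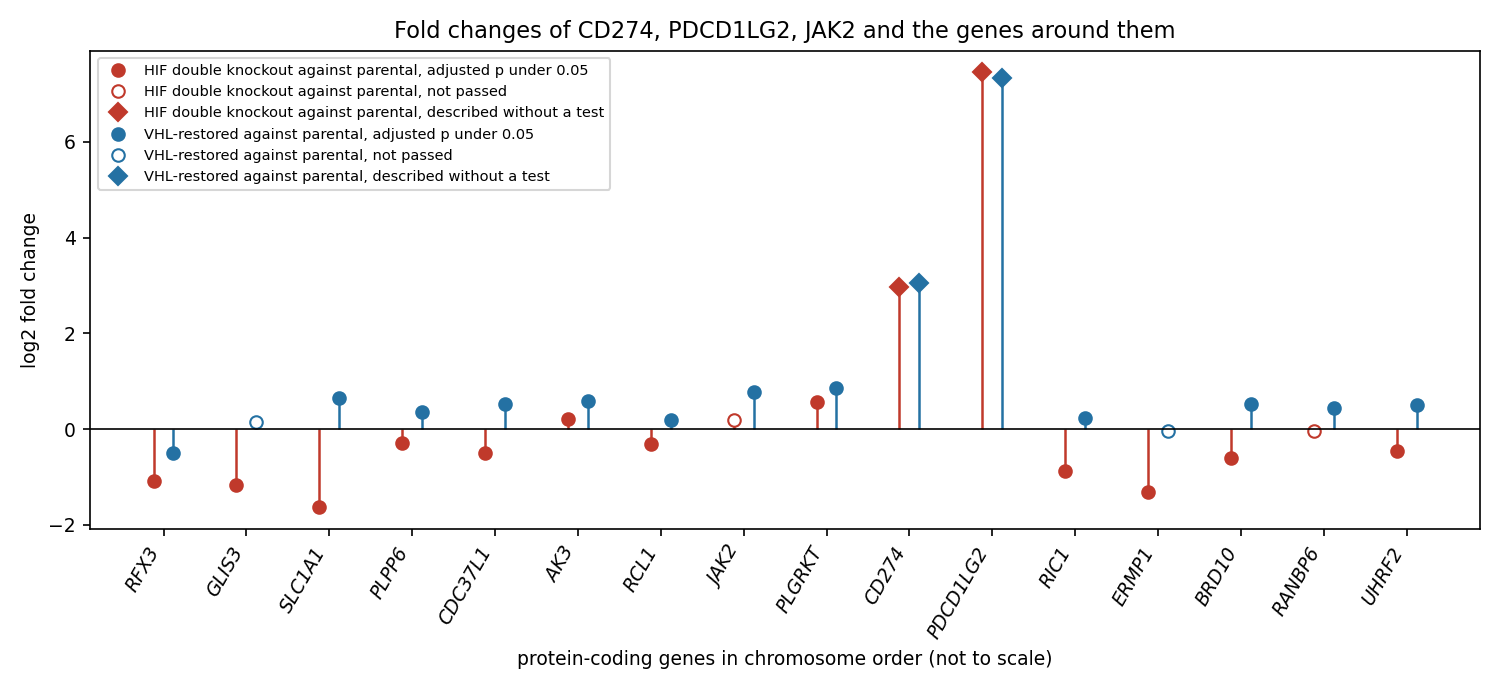
Log2 fold changes of CD274, PDCD1LG2, JAK2 and 13 neighbours with a mean of at least 1 CPM, in chromosome order (y axis, log2 fold change; filled circles, adjusted p under 0.05; open circles, not passed; diamonds, described without a test, with PDCD1LG2 as a ratio of counts). CD274 stands at 2.97 and 3.06, no neighbour drawn is above 0.87, and the lowest, SLC1A1, is at -1.64 in HIF double-knockout cells.

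The genes whose pattern over the 6 libraries was most like that of CD274, by Euclidean distance of centred log2(CPM + 0.5) values, were KLHL13 (0.195), NTNG2 (0.539), INPP4B (0.557), TTC29 (0.601) and ARHGDIB (0.611). PDCD1LG2 lay at 0.948 from CD274, with 24 genes closer. For PDCD1LG2 the nearest were CLDN1 (0.411), MEOX2 (0.440), INPP4B (0.554), NTNG2 (0.583) and C4BPB (0.615), and 7 genes were closer to it than CD274. INPP4B and NTNG2 were thus among the 5 nearest of both PD-1 ligands. KLHL13 averaged 7.06 ± 0.173 CPM in HIF double-knockout cells and 8.15 ± 0.197 CPM in VHL-restored cells, against 0.523 ± 0.0718 CPM in parental cells. JAK2 had close company of another kind, led by SHROOM2 (0.0459), ZNF45 (0.0689), VEZT (0.0703), NUDT3 (0.0743) and ASB6 (0.0776), and 12091 genes were closer to it than CD274. The 6 libraries fall into 3 groups, so the distance rests on 3 group levels, and it also depends on the size of the change. The added 0.5 CPM shrinks changes from low parental levels, so a near gene need not share the fold. KLHL13 had fitted log2 fold changes of 3.76 in HIF double-knockout and 3.97 in VHL-restored cells against parental cells, beside 2.97 and 3.06 for CD274. CLDN1, nearest to PDCD1LG2, had 3.50 and 3.78.

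The counts of the gene lists below stand beside 54.1% of all genes called in HIF double-knockout cells (26.6% higher, 27.5% lower) and 54.2% in VHL-restored cells (26.5% higher, 27.7% lower), both against parental cells. Of 15 genes of the interferon receptors, the JAK-STAT relay and its IRF factors, 8 were higher, 4 lower and 3 did not pass in HIF double-knockout against parental cells, with a median log2 fold change of 0.29. In VHL-restored cells 9 were higher, 4 lower and 2 did not pass, with a median of 0.45, beside 0.00 for all genes in both contrasts. IRF1, an interferon-induced factor that acts on the CD274 promoter, had 49.5 and 45.1 CPM in the HIF double-knockout libraries, 36.1 and 38.8 CPM in the VHL-restored libraries, and 16.2 and 14.7 CPM in the parental libraries. Its groups did not overlap, and its log2 fold change was 1.61 ± 0.09 (adjusted p = 1.2e-16) in HIF double-knockout and 1.27 ± 0.09 (adjusted p = 7.1e-14) in VHL-restored cells. The feedback inhibitor SOCS3 was also higher in each engineered line, with log2 fold changes of 1.67 ± 0.09 in HIF double-knockout and 0.86 ± 0.10 in VHL-restored cells (adjusted p = 1.8e-16 and 3.2e-09).

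STAT2, which carries the interferon signal to the nucleus, went opposite ways in the engineered lines. It averaged 81.1 ± 2.83 CPM in HIF double-knockout cells and 175 ± 2.66 CPM in VHL-restored cells, against 105 ± 5.61 CPM in parental cells. Between HIF double-knockout and VHL-restored cells its log2 fold change was -1.11 ± 0.06 (adjusted p = 9.5e-16). IRF1 and SOCS3 were higher in HIF double-knockout cells in that contrast, with 0.34 ± 0.08 and 0.81 ± 0.08 (adjusted p = 0.000359 and 5.4e-10). Of the 15 genes 5 were higher, 5 lower and 5 did not pass in it. CD274 did not pass in it either, and a link of these genes to its level was not tested. IRF9, the partner of STAT2, was higher than in parental cells in both lines. Its log2 fold change was 1.29 ± 0.08 in VHL-restored and 0.31 ± 0.09 in HIF double-knockout cells (edgeR adjusted p = 0.0036 in the latter). JAK1, the kinase that works beside JAK2, was lower in HIF double-knockout cells, with a log2 fold change of -0.74 ± 0.05. It was slightly lower in VHL-restored cells, with -0.14 ± 0.05 (adjusted p = 0.0248). The receptor chains IFNGR2 and IFNAR1 were lower in VHL-restored cells, with log2 fold changes of -1.38 ± 0.07 and -1.34 ± 0.08. Smaller decreases were called in HIF double-knockout cells, with -0.23 ± 0.07 and -0.30 ± 0.08 (adjusted p = 0.0063 and 0.0011). SOCS1, under 2 CPM in every library, had log2 fold changes of 1.02 ± 0.38 in HIF double-knockout and 2.00 ± 0.35 in VHL-restored cells (adjusted p = 0.018 and 1.9e-06). Its call in HIF double-knockout cells was lost without parental replicate 1 (0.0675) or 2 (0.0727), without HIF double-knockout replicate 2 (0.0858) and with DESeq2 (0.102).

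**Figure D5:**
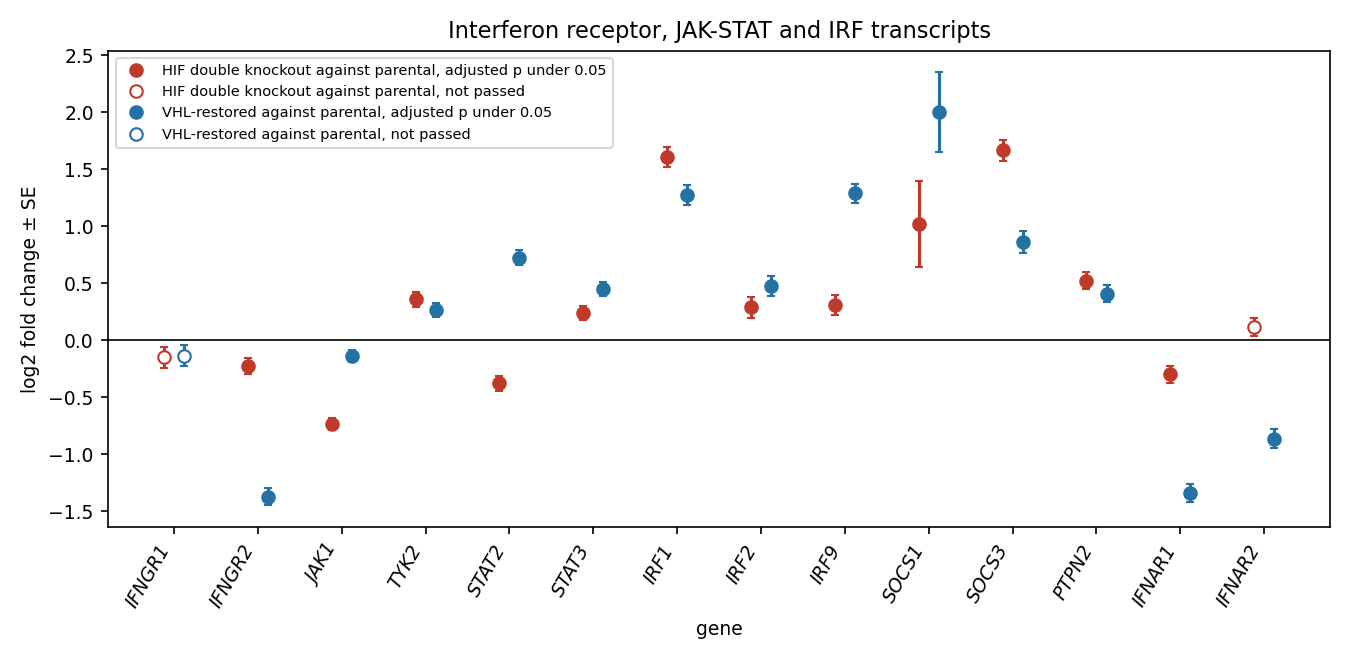
Log2 fold changes ± SE against parental cells of 14 of the 15 interferon receptor, JAK-STAT and IRF genes (y axis, log2 fold change; red, HIF double-knockout cells; blue, VHL-restored cells; filled, adjusted p under 0.05; CIITA, with few counts, is not drawn). IRF1 and SOCS3 are above 0 in both engineered lines, while STAT2 stands at -0.38 in HIF double-knockout cells and at 0.73 in VHL-restored cells.

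Of 8 other transcription factors reported to act on CD274, the targeted HIF genes included, 4 were higher, 3 lower and 1 did not pass in HIF double-knockout cells, and 5 were higher, 1 lower and 2 did not pass in VHL-restored cells. JUN, a subunit of AP-1, averaged 126 ± 4.28 CPM in HIF double-knockout cells and 60.5 ± 1.18 CPM in VHL-restored cells, against 42.4 ± 0.725 CPM in parental cells. NFKB1, an NF-kB subunit gene, was higher, with log2 fold changes of 0.69 ± 0.07 in HIF double-knockout and 0.67 ± 0.07 in VHL-restored cells. MYC was lower, with -0.40 ± 0.06 in HIF double-knockout and -1.43 ± 0.06 in VHL-restored cells on the same scale. The calls of JUN, NFKB1 and MYC passed with adjusted p of 3.6e-07 or less.

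Of 12 genes that act on PD-L1 protein rather than on its transcript, 2 were higher, 6 lower and 4 did not pass in HIF double-knockout cells, and 3 were higher, 3 lower and 6 did not pass in VHL-restored cells. CMTM6, which keeps PD-L1 at the cell surface, was higher in both, with a log2 fold change of 0.38 ± 0.07 in HIF double-knockout cells (adjusted p = 4.2e-05) and of 0.47 ± 0.07 in VHL-restored cells (adjusted p = 1.3e-06). HIP1R, which takes PD-L1 to the lysosome, averaged 49.5 ± 3.00 CPM in HIF double-knockout cells and 96.7 ± 2.80 CPM in VHL-restored cells, against 138 ± 0.195 CPM in parental cells. SPOP, a ubiquitin ligase adaptor, was lower in HIF double-knockout cells, with a log2 fold change of -0.68 ± 0.07, and higher in VHL-restored cells, with 0.28 ± 0.07 (adjusted p = 0.00122). Leaving out parental replicate 1 (0.0515) or VHL-restored replicate 2 (0.0526) ended the VHL-restored call. B3GNT3, a glycosyltransferase, had no count in HIF double-knockout cells and 34 counts in parental cells. With the HIF double-knockout group set at 3 counts it was 11.9-fold lower there, leaving out the counting error of the parental counts. In VHL-restored cells B3GNT3 was also lower, at 0.0894 ± 0.0758 CPM against 0.641 ± 0.0950 CPM in parental cells (edgeR adjusted p = 0.000681). No protein was measured.

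Of 10 further B7 and butyrophilin genes tested, 2 were higher, 5 lower and 3 did not pass in HIF double-knockout cells, and 3 were higher, 2 lower and 5 did not pass in VHL-restored cells. C10orf54, the older symbol of the VISTA gene, was higher in both, at 2.79 ± 0.0709 CPM in HIF double-knockout and 3.86 ± 0.705 CPM in VHL-restored cells, against 1.31 ± 0.293 CPM in parental cells. ICOSLG, a costimulatory ligand, was lower in both, with log2 fold changes of -0.78 ± 0.07 in HIF double-knockout and -0.58 ± 0.07 in VHL-restored cells. NCR3LG1, a ligand of a natural killer cell receptor, was lower in VHL-restored than in parental cells, with a log2 fold change of -1.06 ± 0.11, and higher in HIF double-knockout than in VHL-restored cells, with 1.45 ± 0.11 (adjusted p = 4.7e-13). It was also higher in HIF double-knockout than in parental cells, with 0.39 ± 0.10 (adjusted p = 0.001), a call lost without parental replicate 1 (0.0862).

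Around CD47, of 8 genes tested 2 were higher, 3 lower and 3 did not pass in HIF double-knockout cells, and 1 was higher, 6 lower and 1 did not pass in VHL-restored cells. CD24, another signal that holds off macrophages, had the largest change of the 8 in HIF double-knockout cells, at 33.8 ± 1.81 CPM in HIF double-knockout cells and 330 ± 11.2 CPM in VHL-restored cells, against 1076 ± 30.2 CPM in parental cells. LRP1, a receptor for calreticulin in phagocytosis, was lower, with log2 fold changes of -1.48 ± 0.07 in HIF double-knockout and -0.71 ± 0.07 in VHL-restored cells. SIRPA, the gene of SIRP alpha, was also lower, with -0.89 ± 0.06 in HIF double-knockout and -0.53 ± 0.06 in VHL-restored cells on the same scale. B2M, the light chain of MHC class I, had a log2 fold change of 0.64 ± 0.06 in HIF double-knockout and of -0.48 ± 0.06 in VHL-restored cells, both past the threshold.

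Of 6 nectin relatives of PVR tested, 3 were higher, 2 lower and 1 did not pass in HIF double-knockout cells, and 4 were higher and 2 lower in VHL-restored cells. PVRL1, now NECTIN1, averaged 20.4 ± 2.05 CPM in HIF double-knockout cells and 19.3 ± 0.772 CPM in VHL-restored cells, against 4.93 ± 0.553 CPM in parental cells. PVRL2, now NECTIN2, which shares the receptor TIGIT with PVR, was higher in VHL-restored cells, with a log2 fold change of 1.55 ± 0.10, and lower in HIF double-knockout cells, with -0.32 ± 0.12 (adjusted p = 0.024). The call in HIF double-knockout cells was lost with centring on the median level (0.178), with DESeq2 (0.0724), without parental replicate 1 (0.107) or 2 (0.157) and without HIF double-knockout replicate 2 (0.234). CADM1, a nectin-like adhesion molecule, averaged 55.2 ± 2.73 CPM in HIF double-knockout cells and 5.40 ± 0.654 CPM in VHL-restored cells, against 24.5 ± 0.259 CPM in parental cells. Of 7 other galectins tested, 1 was higher, 2 lower and 4 did not pass in each engineered line. LGALS1 was higher, with log2 fold changes of 0.44 ± 0.06 in HIF double-knockout and 0.32 ± 0.06 in VHL-restored cells. LGALS3 was lower, with -1.39 ± 0.06 in HIF double-knockout and -1.94 ± 0.06 in VHL-restored cells, and LGALS8 was lower in VHL-restored cells, with -1.58 ± 0.07, on the same scale.

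Of 17 other inhibitory and costimulatory ligands tested, 8 were higher and 9 did not pass in HIF double-knockout cells, and 5 were higher, 2 lower and 10 did not pass in VHL-restored cells, beside 26.6% of all genes higher and 27.5% lower in HIF double-knockout cells. NT5E, the CD73 enzyme that makes adenosine, averaged 132 ± 0.321 CPM in HIF double-knockout cells and 132 ± 1.23 CPM in VHL-restored cells, against 42.3 ± 0.00291 CPM in parental cells. CEACAM1, a ligand of TIM-3, was 10.2 times the parental level in HIF double-knockout cells and 16.2 times in VHL-restored cells, with counting intervals of 3.18 to 51.8 and 5.25 to 81.2 that rest on 3 parental counts. These intervals cover counting error only, and the VHL-restored libraries lay apart, at 1.25 and 0.607 CPM. TNFSF9, the ligand of 4-1BB, was higher, with log2 fold changes of 1.01 ± 0.07 in HIF double-knockout and 0.37 ± 0.07 in VHL-restored cells. TNFRSF14, which binds BTLA, was higher in HIF double-knockout cells, with a log2 fold change of 1.59 ± 0.23. CD58, a ligand of CD2, was lower in VHL-restored cells, with a log2 fold change of -0.77 ± 0.13, and higher in HIF double-knockout cells, with 0.50 ± 0.11 (adjusted p = 0.000287). The call in HIF double-knockout cells was lost without parental replicate 1 (0.107) or HIF double-knockout replicate 2 (0.0562).

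Of 9 leukocyte checkpoint receptors tested, 1 was lower and 8 did not pass in HIF double-knockout cells, and 2 were higher and 7 did not pass in VHL-restored cells. These were PVRIG, with a log2 fold change of -0.88 ± 0.26 in HIF double-knockout and 0.59 ± 0.21 in VHL-restored cells, and CD96, with 0.72 ± 0.21 in VHL-restored cells, both at group means under 3 CPM. Each of these calls was lost on leaving out a library and with DESeq2. For PVRIG the adjusted p was 0.0572 in HIF double-knockout cells without parental replicate 1 and 0.0620 without HIF double-knockout replicate 2. In VHL-restored cells it was 0.106 for PVRIG without parental replicate 1, 0.0916 without parental replicate 2 and 0.177 without VHL-restored replicate 1. For CD96 it was 0.0642 without parental replicate 2. The summed leukocyte markers given above were lower in both engineered lines than in parental cells, and their part in these calls was not tested.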

How the data were processed

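Poly(A)-selected RNA of RCC10 cells was sequenced after DNase treatment, per the labels' protocols. The authors deposited 1 table of whole-number read counts for 19009 gene symbols and 6 libraries. Its name calls the values normalized, but the column totals differ and small whole numbers all occur, and they were used as raw counts. The submitters' processing notes name the builds hg38 and hg19 and the tools HISAT2 2.2.1, featureCounts 2.0.8, limma 3.58.1, Trimmomatic 0.39 and FastQC 0.74, without order or settings. Strand and multi-mapping settings are not given in the labels or notes.

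Genes were tested if any library held 1 count or more (18273 genes), with edgeR 4.0.16 in R 4.3.3 (TMM scaling, factors 0.977 to 1.02, quasi-likelihood test, 3 group means over 6 libraries, prior count 0.125). P-values were adjusted by Benjamini-Hochberg over all genes, at a threshold of 0.05. The common dispersion corresponded to a biological coefficient of variation of 4.41%. Printed levels are CPM on the TMM library size, as mean ± SD of 2 libraries, and lengths are merged exons of the GENCODE 29 basic set. Ratios with 1 to 3 counts in a group carry exact 95% counting intervals, and a group at 0 is set at 3 counts over the group. Folds from a group set so leave out the counting error of the other group. Replicates differed by more than sampling noise (chi-square per degree of freedom of 2.58 to 6.61).

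The members and the 13 lists of related genes and markers (148 names, 131 matched) were chosen with earlier results of these data known. The naming rule took the members, up to 4 genes per list and comparison with the largest change past the threshold, the targeted genes, chromosomal neighbours and the 5 nearest patterns. Such genes are printed only where a statement rests on them, and 1 gene of the interferon list is not reported here. The procedure was also run on counts simulated with the dispersions of these libraries. Far fewer genes were changed there than were called here, and no result above rests on that run. Alternatives were other scalings, filterByExpr, a replicate block, DESeq2 1.42.0, limma-voom, the 4 compared libraries alone and leaving out each library.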

Additional observations from a re-analysis of the deposited data

How the results depend on the processing

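With 2 libraries per group, small changes near the threshold depend on single libraries, and genes of a few counts such as LGALS9 and VTCN1 are limited by depth. Over 15 alternatives, 274 of the members' values kept direction and call, 13 lost the call, 4 gained it and 3 changed sign. The sign changes were all in PVR between HIF double-knockout and VHL-restored cells, which did not pass in any fit: 0.0382 with centring on the median level, 0.0406 without HIF double-knockout replicate 2 and 0.00136 without VHL-restored replicate 1, in a range of -0.0455 to 0.0406 over libraries left out. CD276 kept every call, as did JAK2 in VHL-restored cells. For CD274 and PDCD1LG2 against parental cells, which carry no test here, that count says nothing about stability. CD47 in VHL-restored cells passed with filterByExpr (0.16, adjusted p = 0.0236), and LGALS9 there with limma-voom (2.00, adjusted p = 0.00787). Genes called ranged, without 1 library, from 7974 to 8913 for HIF double-knockout and from 7891 to 9273 for VHL-restored against parental cells, and from 9019 to 9679 between the engineered lines.

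The deviations of same-numbered libraries had a correlation of 0.13 between parental and HIF double-knockout cells. It was 0.000456 between parental and VHL-restored cells and 0.00576 between the engineered lines. Each correlation rests on a single difference between replicates per group, so it cannot decide whether the numbers pair the libraries. With the number as a replicate block 10112, 10148 and 10458 genes and 6, 7 and 3 members were called, and CD47 passed in VHL-restored cells (0.14, adjusted p = 0.0288). Centring by the planned median gave the DESeq2 size factors again. Of the other named genes' values 1038 kept direction and call, 27 lost the call and 1 gained it. The cause of these changes was not tested.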
